A study of Mus musculus with 9 samples.

Results

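The 5 genes described here are Dppa2, Dppa4 and Dppa5a, 3 genes named for developmental pluripotency association, with Utf1 and Tdh, which are likewise read in early embryos and pluripotent cells. They were chosen by name from the gene symbols of the count files, which list 53819 rows, and each symbol was found once in every file. Total RNA from C57BL/6J mouse morulae, the stage at which blastomeres compact before the blastocyst forms, was sequenced to ask whether alcohol taken by the father before conception bears on the embryo's transcripts. All embryos came from in vitro fertilization by the Nakagata protocol in CARD media. The sires fell into 3 groups, control, 6% EtOH (ethanol) and 10% EtOH, with 3 libraries in each. The labels state neither the age of the sires, the length of the exposure, nor the number of embryos or sires pooled into a library. The p-values below therefore measure only how far these libraries vary, and that variation may be technical. In bulk RNA of this kind, fewer cells of a type and less RNA per cell cannot be told apart.

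Dppa2 and Dppa4 are small nuclear proteins with a SAP domain that bind chromatin as a pair, keep developmental gene promoters in a state that can be switched on later, and activate genes of the zygotic genome activation programme. Dppa5a is a KH-domain protein that binds RNA and marks pluripotent cells and early germ cells. Utf1 is a chromatin-associated factor of pluripotent cells, and in the mouse embryo it is best known from the blastocyst's inner cell mass and the epiblast. Tdh, threonine dehydrogenase, begins the mitochondrial breakdown of threonine to glycine and acetyl-CoA, a route on which mouse pluripotent cells depend.

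Library totals ran from 6263465 to 27619281 counts. The count column carries 1 of 2 header forms: a long one naming RNA STAR in 4 libraries (control 2, 6% 1, 10% 1 and 10% 2), and a short one in the other 5. The long form went with totals of 19574710 to 27619281 and the short form with 6263465 to 11026334. The sources used here do not say what the header form stands for, so values within each form are set beside the results they bear on. The 20 of 21 pluripotency markers found in the files summed to 4346 to 6382 CPM in a library, and 12 trophectoderm markers to 632 to 3165 CPM. CPM are counts scaled to a common library total, taken on full totals for sums over lists and on TMM-scaled totals for single genes. The pluripotency sum was led by Fbxo15 and Klf5, at means of 2594 and 802 CPM over the 9 libraries. Pou5f1 averaged 52.2 CPM, and Sox2, Tcl1, Prdm14 and Nr0b1 averaged 2.16, 1.07, 0.903 and 0.792 CPM. Markers of other cells were low: 10 oocyte genes summed to 4.95 to 43.8 CPM, 9 cumulus and granulosa genes to 0 to 5.90 CPM, 6 sperm genes to at most 0.102 CPM and 6 blood genes to at most 0.264 CPM. The cumulus genes Ptx3, Has2, Fshr and Inhba were at 0 in all 9 libraries.

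All 5 genes passed the filter on low counts that left 12488 genes for testing, and none of them passed the edgeR quasi-likelihood test between sire groups. In 6% ethanol against control, 0 of the 5 passed after Benjamini-Hochberg adjustment, against 0% of all tested genes, and 0 of 5 had an unadjusted p under 0.05, against 6.24% of tested genes. In 10% ethanol against control the counts were again 0 of 5 (0% of tested genes) after adjustment, and 1 of 5 unadjusted, which was Utf1 (2.14%). In 10% against 6% ethanol they were 0 of 5 (0%) and 1 of 5, which was Dppa4 (5.33%). With the mean of both ethanol groups set against control they were 0 of 5 (0%) and 0 of 5 (4.08%). DESeq2 and limma voom also called 0 of the 5 in each of these 4 comparisons, where DESeq2 called 0.248%, 0.0801%, 0.272% and 0.136% of the tested genes and limma voom 0% in each.

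**Figure D1:**
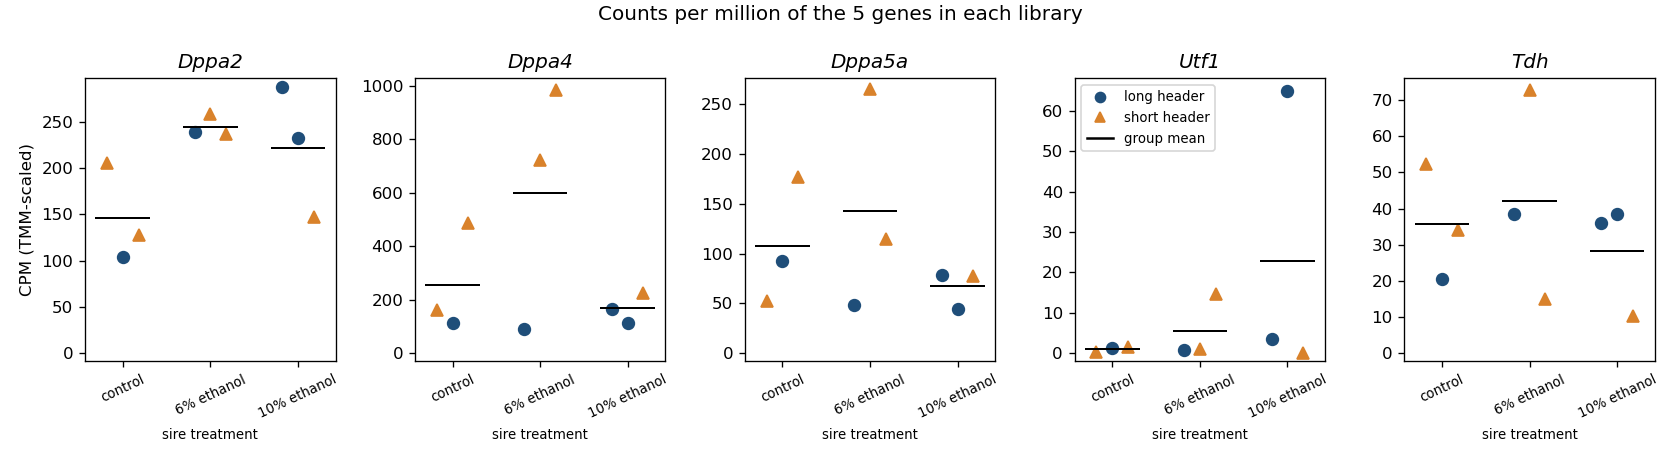
Level of each of the 5 genes in each library, in CPM on TMM-scaled library sizes, by sire treatment (3 libraries a group). Circles are long-header libraries, triangles short-header libraries, and bars the group means. Dppa2 keeps within 104 to 288 CPM, the high Dppa4 values are all triangles, and 1 library carries most of the Utf1 signal.

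Set on one scale per length, in CPM per kb of exon, the order of the mean levels over the 9 libraries was Dppa4 at 205 ± 193, Dppa5a at 171 ± 117, Dppa2 at 83.5 ± 26.0, Tdh at 13.5 ± 7.37 and Utf1 at 7.96 ± 17.2 (SD, n = 9). Dppa4 ranked 206th, Dppa5a 247th and Dppa2 548th among the 12174 tested genes with a known length, while Tdh ranked 3052nd and Utf1 4326th. The Utf1 mean rests on 10% library 2, and without it was 2.36 CPM per kb, ranked 7494th. Within the 3 Dppa genes the neighbours in this order did not separate, since their ranges were 53.8 to 591, 71.6 to 428 and 42.5 to 118 CPM per kb. The lowest Dppa2 library lay above the highest Tdh library, at 27.9 CPM per kb. Utf1 ran from 0 to 52.8 CPM per kb and so overlapped Tdh.

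The genes also differed in how far they varied among libraries. The SD of log2(CPM + 1) over the 9 libraries was 0.51 for Dppa2, at the 10th percentile of tested genes, against a median of 0.93. Dppa5a at 0.86 and Tdh at 0.85 lay near the middle of tested genes. Dppa4 at 1.25 stood at the 77.0 percentile and Utf1 at 1.94 at the 98.0 percentile. The 3323 tested genes with a mean of 50 CPM or more had a median SD of 0.71, which is also above that of Dppa2.

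Dppa2 was the steadiest of the 5. It stood at 206, 104 and 127 CPM in controls 1 to 3, at 239, 259 and 237 CPM with 6% ethanol, and at 288, 232 and 147 CPM with 10% ethanol. Each library of the 6% group lay above each control, while the 10% group overlapped both others through its library 3. Of all tested genes, 3.35% lay wholly above the controls in the 6% group, and 8.06% lay wholly above or below them. Of the 5 genes Dppa2 was the only 1 to do so.

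The mean of Dppa2 was 146 ± 53.4 CPM in controls, 245 ± 12.2 CPM with 6% ethanol and 222 ± 71.2 CPM with 10% ethanol (SD, n = 3). The fitted log2 fold change for 6% against control was 0.75 ± 0.45 (SE), a 1.68-fold difference with a 95% interval of 0.858 to 3.30 (edgeR unadjusted p of 0.119, adjusted p = 0.822). For 10% against control it was 0.61 ± 0.45, 1.53-fold with an interval of 0.779 to 2.99 (edgeR adjusted p = 0.99992), and for 10% against 6% it was -0.14 ± 0.45 (0.951). None of these differences passed the test, which draws its spread from all 9 libraries. The 6% value kept its sign under every one of 21 alternative settings, between 0.47 and 1.21, but the separation from the controls depended on scaling: on library size alone the 6% libraries ran from 198 to 249 CPM and the controls from 123 to 229 CPM. For 10% against control the sign held in all settings except the fit to short-header libraries alone, at -0.19, where the 10% group has 1 library. The long-header libraries alone, with 1 control, gave 1.32.

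Dppa4, the partner of Dppa2, varied most in absolute terms and did so with the header form. It stood at 162, 113 and 486 CPM in the controls, at 89.3, 720 and 983 CPM with 6% ethanol, and at 165, 114 and 227 CPM with 10% ethanol. The high libraries were control 3, 6% 2 and 6% 3, all with short headers, and the lowest of all was 6% 1, which alone in its group has the long header. The 6% group thus held both the lowest and the highest value of the series and overlapped both other groups. None of the 5 genes separated the 10% from the 6% libraries, where 9.66% of tested genes did.

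Group means of Dppa4 were 254 ± 203 CPM in controls, 598 ± 459 CPM with 6% ethanol and 169 ± 56.4 CPM with 10% ethanol (SD, n = 3). The log2 fold change of 10% against 6% was -1.82 ± 0.78 (SE), to 0.282 of the 6% level with a 95% interval of 0.0879 to 0.906, and edgeR gave an unadjusted p of 0.0358 and an adjusted p of 0.806. Unadjusted lower values at that level were found in 3.07% of tested genes. With the header form as a term the same contrast was -0.77 (edgeR adjusted p = 0.955). Within long-header libraries, where the 6% group has 1 library, it was 0.63, and within short-header libraries, where the 10% group has 1 library, it was -1.90. Leaving out 6% library 3 brought it to -1.18 and leaving out 6% library 1 to -2.32, neither of which passed after adjustment.

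Against control, the log2 fold change of Dppa4 was 1.24 ± 0.76 for 6% ethanol (edgeR adjusted p = 0.822) and -0.59 ± 0.75 for 10% ethanol (0.99992). The first ran from 0.61 without 6% library 3 to 2.06 without control library 3, and was 1.39 within short-header libraries, at 2 against 2. It was above 0 in every alternative setting but the long-header fit, at -0.33, which sets 1 library of 6% ethanol against 1 control. The second became 0.29 without control library 3, 0.19 with header form as a term and 0.30 within long-header libraries, with 1 control. Neither passed the test in any setting.

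By header form itself Dppa4 averaged 120 ± 32.1 CPM in the 4 long-header libraries, with a range of 89.3 to 165, and 516 ± 343 CPM in the 5 short-header libraries, with a range of 162 to 983 (SD). On TMM-scaled sizes none of the 5 genes separated the header forms, where 9.07% of tested genes did. For Dppa4 the ranges met only where control 1, a short-header library, stood at 162 CPM and 10% 1, a long-header library, at 165 CPM. On library size alone Dppa4 did separate the forms, at 93.1 to 162 CPM in the long and 181 to 821 CPM in the short form. At that scaling 4.12% of tested genes lay wholly lower in the long form. With sire group as a term the long form was lower by a log2 fold change of -1.77 ± 0.56 (edgeR unadjusted p = 0.00891, adjusted p = 0.211). By edgeR 0 of the 5 genes passed by header form, where 0.104% of tested genes did, and 1 of 5, Dppa4, had an unadjusted p under 0.05, where 14.8% did. By DESeq2 Dppa4 passed (log2 fold change -1.79, adjusted p = 0.0219), but so did 8.22% of all tested genes, and by limma voom, which called 2.5% of tested genes, its adjusted p was 0.0599. None of the other 4 genes was called by header form by any of the 3 tools.

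**Figure D2:**
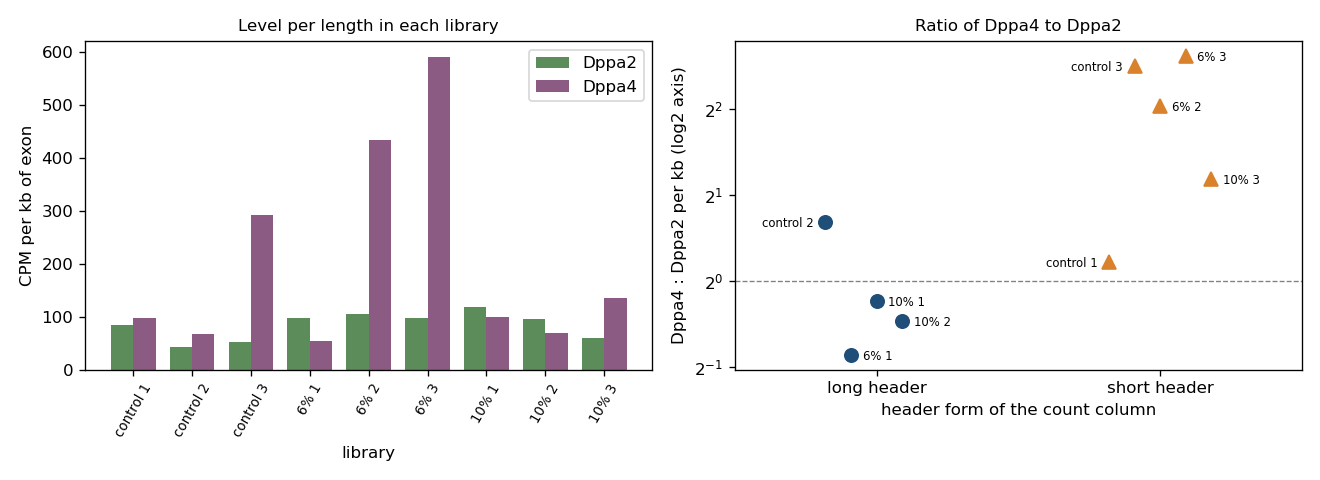
Left, CPM per kb of exon of Dppa2 and Dppa4 in each library as bars. Right, their ratio in each library on a log2 axis, by header form, with a dashed line at equal levels. The ratio runs from 0.551 to 1.60 in long-header libraries and from 1.16 to 6.10 in short-header libraries.

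The proteins of Dppa2 and Dppa4 work as a pair, and the genes are next to each other on chromosome 16, in the RefSeq order Dppa4, Dppa2, Morc1. Their transcripts did not keep a fixed ratio. Per kb of exon the Dppa4 to Dppa2 ratio was 1.16, 1.60 and 5.61 in the controls, 0.551, 4.09 and 6.10 with 6% ethanol, and 0.846, 0.722 and 2.28 with 10% ethanol. Dppa2 exceeded Dppa4 in 3 libraries, 6% 1, 10% 1 and 10% 2, all of them long-header. Group means of the ratio were 2.79 ± 2.46, 3.58 ± 2.81 and 1.28 ± 0.863 (SD, n = 3) and the groups overlapped. By header form the mean ratio was 0.929 ± 0.462 in the long (n = 4) and 3.85 ± 2.12 in the short form (n = 5), and these ranges also overlapped, between control 1 at 1.16 and control 2 at 1.60. Dppa2 itself showed no such split, with a header log2 difference of 0.02 ± 0.40 (edgeR adjusted p = 0.985) and ranges of 104 to 288 CPM in the long and 127 to 259 CPM in the short form.

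Dppa5a has 2 near copies listed in the same files, Dppa5b and Dppa5c, which the GENCODE annotation classes as unprocessed pseudogenes. All 3 are on chromosome 9. The coding part of Dppa5a holds 357 bases, the 2 copies have identical transcripts of 348 bases, and 316 of 339 aligned bases (93.2%) are shared with Dppa5a. The first 240 coding bases of Dppa5a are shown in 2 stretches beside the matching stretch of the copies, read 5′ to 3′ on the transcript strand from GENCODE transcripts of GRCm38, because they show where a read can and cannot tell the genes apart. Capitals mark the bases that differ between the gene and its copies, or that one of them lacks.
Dppa5a, bases 1 to 120: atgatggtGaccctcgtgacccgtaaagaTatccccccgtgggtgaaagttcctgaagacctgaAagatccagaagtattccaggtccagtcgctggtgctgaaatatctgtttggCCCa
Dppa5b and Dppa5c, bases 1 to 118: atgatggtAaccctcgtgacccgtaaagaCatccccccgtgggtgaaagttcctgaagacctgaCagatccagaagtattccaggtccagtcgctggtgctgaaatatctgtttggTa
Dppa5a, bases 121 to 240: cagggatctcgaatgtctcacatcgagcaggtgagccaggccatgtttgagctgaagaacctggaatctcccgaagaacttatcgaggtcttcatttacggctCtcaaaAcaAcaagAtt
Dppa5b and Dppa5c, bases 119 to 238: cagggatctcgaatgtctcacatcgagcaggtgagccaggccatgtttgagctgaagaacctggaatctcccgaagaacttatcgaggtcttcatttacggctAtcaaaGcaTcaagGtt

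The longest stretch shared without a difference covers 104 bases, from base 120 to base 223 of the Dppa5a coding sequence. Reads that fall wholly within it match all 3 genes equally, and the sources used here do not say whether such reads were dropped, counted once or split. Dppa5b and Dppa5c match each other throughout, so a read within their transcripts cannot tell them apart. The counts of Dppa5a and of both copies below are uncertain for these reasons.

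Dppa5a stood at 52.8, 92.7 and 177 CPM in the controls, at 48.4, 265 and 115 CPM with 6% ethanol, and at 78.9, 44.3 and 77.8 CPM with 10% ethanol. The highest value was 6% library 2 and the second highest control 3, both short-header, while the 10% libraries all lay under 80 CPM. The 3 groups overlapped. Group means were 107 ± 63.3, 143 ± 111 and 67.0 ± 19.6 CPM (SD, n = 3).

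The log2 fold change of Dppa5a was 0.41 ± 0.66 for 6% against control (edgeR adjusted p = 0.925), -0.68 ± 0.66 for 10% against control (0.99992) and -1.09 ± 0.66 for 10% against 6% (unadjusted p = 0.126, adjusted p = 0.810). The 10% against control value stayed below 0 in all 21 alternative settings, between -0.996 and -0.13, and passed the test in none. Without 6% library 2 the contrast of 10% with 6% shrank to -0.26 and that of 6% with control turned to -0.40. Within long-header libraries, where control and 6% have 1 library each, 6% against control was -0.93, 10% against control -0.60 and 10% against 6% 0.34. Within short-header libraries, where the 10% group has 1 library, the same contrasts were 0.71, -0.56 and -1.27. Long-header libraries averaged 66.1 ± 23.5 CPM (44.3 to 92.7) and short-header libraries 137 ± 85.2 CPM (52.8 to 265), with a log2 difference of -0.81 ± 0.57 (edgeR adjusted p = 0.512).

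**Figure D3:**
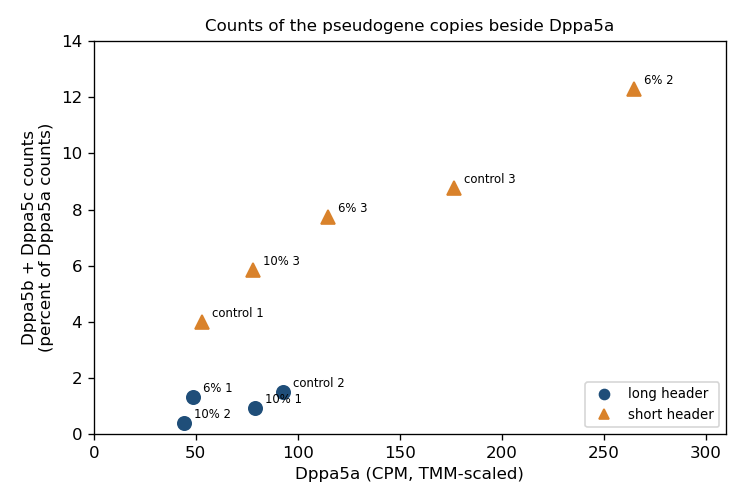
Counts of Dppa5b and Dppa5c together, as a percent of the Dppa5a counts of the same library, against the Dppa5a level in CPM. Circles are the 4 long-header libraries, at 0.411 to 1.52 percent, and triangles the 5 short-header libraries, at 4.01 to 12.3 percent.

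The reads assigned to the copies separated by header form more cleanly than those of Dppa5a. Together Dppa5b and Dppa5c took 26, 39 and 106 counts in the controls, 15, 171 and 81 with 6% ethanol, and 14, 5 and 40 with 10% ethanol. As a percent of the Dppa5a counts this was 0.411 to 1.52 in long-header libraries and 4.01 to 12.3 in short-header libraries, with no overlap. Dppa5c alone ran from 0.0728 to 0.720 CPM in the long form and from 1.55 to 24.4 CPM in the short form. Its log2 difference was -3.83 ± 1.22 (edgeR unadjusted p = 0.00890, adjusted p = 0.211), and 4.8% of tested genes lay wholly lower in the long form. Dppa5b alone overlapped, at 0.109 to 0.684 CPM in the long and 0.570 to 8.18 CPM in the short form. Its log2 difference was -3.05 ± 1.19 (edgeR unadjusted p = 0.0253, adjusted p = 0.276). The 2 have identical transcripts, yet their counts differed. Dppa5b and Dppa5c took 43 and 128 counts in 6% library 2, and 38 and 68 in control 3. Dppa5b was the higher in 6% library 1, at 8 against 7, and in 10% library 2, at 3 against 2. How reads were assigned between them was not tested, so the separate values and tests cannot be read as those of distinct genes. Adding the copies to Dppa5a left the group means in the same order, at 114 ± 70.8 CPM in controls, 157 ± 128 CPM with 6% ethanol and 68.8 ± 21.1 CPM with 10% ethanol (SD, n = 3).

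Utf1 had few counts in most libraries and many in 10% library 2. Its counts were 4, 36 and 10 in the controls, 18, 6 and 133 with 6% ethanol, and 69, 1778 and 0 with 10% ethanol. In CPM these were 0.325, 1.30 and 1.46, then 0.759, 1.14 and 14.6, then 3.59, 64.8 and 0, where a count of 0 in 10% library 3 allows a level of up to 0.341 CPM (3 counts, counting error only). The 10% group therefore held both the highest and the lowest library, and it overlapped the controls. So did the 10% group for each of the other 4 genes, where 8.06% of tested genes lay wholly above or below the controls.

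Group means of Utf1 were 1.03 ± 0.614, 5.50 ± 7.88 and 22.8 ± 36.4 CPM (SD, n = 3). The log2 fold change of 10% against control was 4.47 ± 1.97 (SE; edgeR unadjusted p = 0.0417, adjusted p = 0.99992), and 0.857% of tested genes were higher at that unadjusted level. Without 10% library 2 it was 0.82, with an unadjusted p of 0.674 and an adjusted p of 1 by edgeR, so the value rests on that library. For 6% against control the log2 fold change was 2.42 ± 1.81 (edgeR adjusted p = 0.849), and without 6% library 3 it was -0.16. For 10% against 6% it was 2.05 ± 1.76 (0.823), and without 10% library 2 it was -1.58. Within long-header libraries, which hold 10% library 2 and 1 library each of control and 6%, the 10% group was at 4.72 against control and 5.48 against 6%, and 6% against control was -0.76. Within short-header libraries the only 10% library is the one at 0, and the fitted values turned to -5.92 against control and -9.06 against 6%, which depend on the prior count and are no bound, while 6% against control was 3.14. In library 10% 2 the 10 oocyte genes summed to 10.9 CPM, against 10.2 to 11.9 CPM in the controls. There the cumulus and sperm genes were all at 0, the blood genes summed to 0.145 CPM, and the 20 pluripotency markers summed to 5887 CPM.

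Tdh was expressed at a moderate level in every library. It stood at 52.2, 20.6 and 34.2 CPM in the controls, at 38.6, 72.9 and 14.9 CPM with 6% ethanol, and at 35.9, 38.4 and 10.3 CPM with 10% ethanol. The highest and the next to lowest library both belonged to the 6% group, and the 3 groups overlapped throughout. Group means were 35.7 ± 15.9, 42.1 ± 29.1 and 28.2 ± 15.5 CPM (SD, n = 3). The log2 fold change was 0.24 ± 0.75 for 6% against control, 0.381 to 3.66-fold as a 95% interval of the fold, and -0.34 ± 0.75 for 10% against control, 0.255 to 2.45-fold (edgeR adjusted p = 0.969 and 0.99992). For 10% against 6% it was -0.58 ± 0.75 (edgeR adjusted p = 0.877). The sign of the 10% against control value changed to 0.07 without control library 1 and to 0.07 without 10% library 3. Within long-header libraries that value was 0.85 and within short-header libraries, where the 10% group has 1 library, -2.07. Between the header forms Tdh differed by 0.13 ± 0.78 on the log2 scale (edgeR adjusted p = 0.955).

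**Figure D4:**
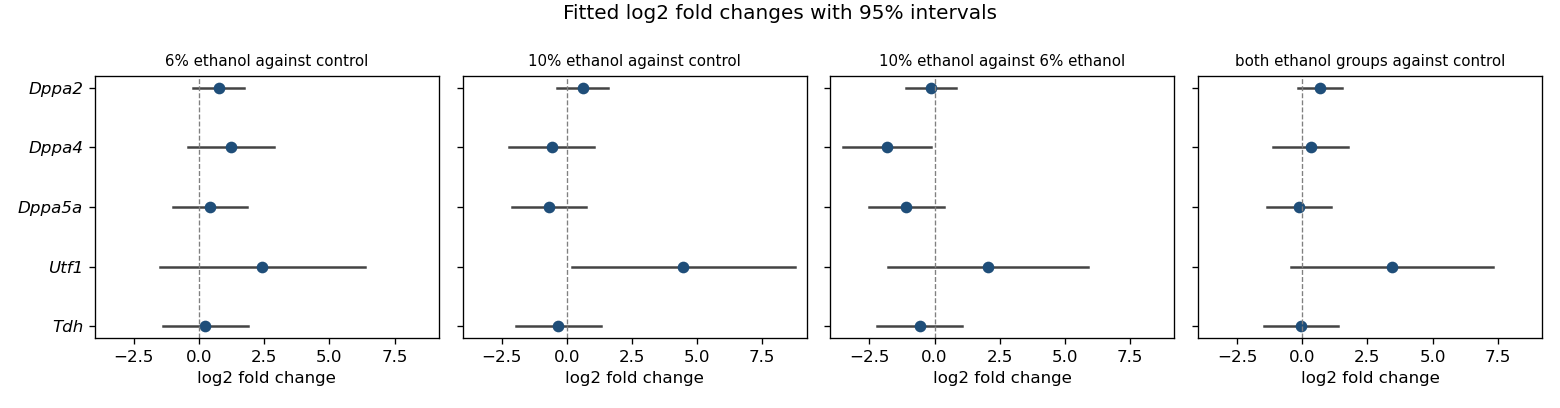
Fitted log2 fold change of each gene in the 4 comparisons of sire groups, with 95% intervals from the edgeR fit, and a dashed line at no change. The intervals of Dppa4 in 10% against 6% ethanol and of Utf1 in 10% ethanol against control leave out 0 before adjustment, and no gene passes after adjustment over all 12488 tested genes.

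With the mean of both ethanol groups set against control, Dppa2 was at a log2 fold change of 0.68 ± 0.40 (edgeR unadjusted p = 0.112, adjusted p = 0.999). On TMM-scaled sizes 5 of its 6 ethanol libraries lay above the highest control, a pattern not counted over all tested genes. It depended on scaling: on library size alone the highest control was at 229.5 CPM and the 6% libraries began at 198 CPM. Limma voom gave an unadjusted p of 0.0411 for Dppa2, and an adjusted p of 0.991. By limma voom 615 of the 12488 tested genes had an unadjusted p under 0.05 in this comparison. Within the long-header libraries, with 1 control, Dppa2 was at 1.26, and within the short-header libraries at 0.18. Dppa4 at 0.32 ± 0.66, Dppa5a at -0.14 ± 0.57 and Tdh at -0.05 ± 0.65 were near 0 in log2 fold change. Utf1 was at 3.44 ± 1.79 (edgeR unadjusted p = 0.0771), and at 1.61 without 10% library 2. None of the 5 had ethanol libraries wholly above or below the controls, against 1.79% of tested genes.

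How alike the 5 genes ran across the 9 libraries was measured by centring log2(CPM + 1) of each gene on its own mean and averaging the absolute differences. The nearest pair among the 5 was Dppa4 and Dppa5a at 0.461, and next was Dppa2 and Tdh at 0.597. Dppa2 and Dppa4 differed by 1.09, more than Dppa2 differed from Dppa5a at 0.883. Utf1 was at 1.31 or more from each of the others. In such a measure all genes of a library share its depth and header form, which differ between libraries. These values therefore describe the libraries and carry no test.

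Among 6830 tested genes with a mean of 10 CPM or more, those nearest to Dppa2 were Pramel35 at 0.172, Fbxw2 at 0.192 and Tfrc at 0.195, where the median gene was at 0.775. Those nearest to Dppa4 were Rpl5-ps1 at 0.204, Slc7a6os at 0.265 and Pnn at 0.267 (median 1.22). Those nearest to Dppa5a were Rpl19 at 0.228, Rpl21 at 0.231 and Rps27l at 0.232 (median 0.94). Tdh ran closest to Arpc5 at 0.209, Iftap at 0.298 and Ganab at 0.301 (median 0.919). No gene ran close to Utf1, for which Tbck at 0.857, Fbxo30 at 0.868 and Cdin1 at 0.888 were the nearest (median 1.57).

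Other genes of the same families and routes were read from lists. By edgeR 0 genes of any list passed in a comparison of sire groups, and by DESeq2 and limma voom 0 did as well. Of 7 further Dppa and KH-family genes 6 were tested, and for 6% against control 4 of the 6 had an unadjusted edgeR p under 0.05, where 6.24% of all tested genes did, and 0 had for 10% against control. Their median log2 fold change was 0.92 for 6% and 0.34 for 10% against control, where the medians of all tested genes were -0.01 and -0.05. Dppa3, which protects the maternal genome's methylation in the zygote, was the most abundant of them, at 1349 ± 785 CPM in controls, 2961 ± 1313 CPM with 6% ethanol and 1536 ± 309 CPM with 10% ethanol (SD, n = 3). Its log2 fold change for 6% against control was 1.13 ± 0.50 (edgeR unadjusted p = 0.0421, adjusted p = 0.799), and the ranges of the groups overlapped. As with Dppa4, its 2 highest libraries were 6% 2 and 6% 3, at 3381 and 4013 CPM. The files also list a pseudogene, Dppa3-ps, with which Dppa3 may share reads. Khdc3, a KH-domain protein of the maternal subcortical complex, was at 515 ± 123, 523 ± 263 and 361 ± 109 CPM.

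The other 3 genes with such an unadjusted p, named after their values were seen, were Khdc1a, Khdc1c and Ooep. Khdc1a and Khdc1c are KH-domain genes of oocyte and early embryo with similar copies, so that shared reads make their counts uncertain. Khdc1a was at 196 ± 42.0, 461 ± 257 and 375 ± 117 CPM in control, 6% and 10% ethanol, a log2 fold change of 1.23 ± 0.53 for 6% against control. Its lowest 6% library, at 173 CPM, lay within the control range of 150 to 233 CPM. Khdc1c was at 102 ± 37.3, 271 ± 126 and 143 ± 60.7 CPM (1.41 ± 0.55). Each of its 6% libraries lay above each control, as was so for 3.35% of all tested genes. Ooep, a subcortical complex gene that is next to Dppa5a on chromosome 9, was lower in the 6% libraries, at 5.53, 20.7 and 2.34 CPM in the controls, 0.464, 1.90 and 1.32 CPM with 6% ethanol, and 2.40, 3.57 and 0.909 CPM with 10% ethanol. Its log2 fold change for 6% against control was -2.97 ± 1.26, and the adjusted edgeR p of all 3 was 0.799.

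The threonine, glycine and one-carbon list continues the route that Tdh opens. All 15 of its genes were tested, and 2 had an unadjusted edgeR p under 0.05 for 6% against control, where 6.24% of all tested genes did, and 0 for 10% against control, where 2.14% did. There were 9 above 0 for 6% against control (median log2 fold change 0.23), 8 above 0 for 10% against control (0.11) and 4 above 0 for 10% against 6% (-0.78). Over all tested genes the medians were -0.01, -0.05 and -0.02, and 50.5%, 52.9% and 50.5% of genes lay below 0. Gldc, the decarboxylase of the glycine cleavage system, was the most abundant, at 3735 ± 1823, 2875 ± 373 and 4166 ± 866 CPM in control, 6% and 10% (SD, n = 3). Gcsh, the lipoyl carrier of the same system, was at 889 ± 497, 2405 ± 1085 and 1393 ± 325 CPM. Each of its 6% libraries lay above each control, as was so for 3.35% of all tested genes. Its log2 fold change was 1.44 ± 0.51 (edgeR unadjusted p = 0.0150, adjusted p = 0.799). The other of the 2, named after its values were seen, was Mat2b, the regulatory subunit of methionine adenosyltransferase, at 72.3 ± 46.5, 271 ± 224 and 69.7 ± 16.3 CPM. Its log2 fold change was 1.90 ± 0.70 for 6% against control and -1.96 ± 0.71 for 10% against 6% (edgeR adjusted p = 0.799 and 0.806), and the highest library was 6% 2 at 527 CPM. Gcat, the enzyme that takes the product of Tdh to glycine, was likewise chosen after its values were seen. It was at 5.92 ± 0.994, 20.0 ± 17.7 and 8.35 ± 4.06 CPM, and the 6% mean rests on libraries 2 and 3 at 38.6 and 17.9 CPM beside 3.50 CPM in library 1 (log2 fold change 1.75 ± 0.98, edgeR unadjusted p of 0.0981, adjusted p = 0.822).

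Of 18 genes for the bivalent chromatin machinery and SUMO partners of Dppa2 and Dppa4, all were tested. In each comparison of sire groups 0 had an unadjusted edgeR p under 0.05. Of all tested genes 6.24% did for 6% and 2.14% for 10% against control, 5.33% for 10% against 6%, and 4.08% for both groups. The list's median log2 fold change was -0.02 for 6% and -0.18 for 10% against control. The most abundant were Suz12, a core subunit of Polycomb complex PRC2, at 631 ± 275, 1045 ± 522 and 574 ± 130 CPM, and Mtf2, a PRC2 accessory subunit, at 478 ± 69.2, 745 ± 250 and 417 ± 53.5 CPM (SD, n = 3). Both lay wholly lower in long-header than in short-header libraries, as did 4.8% of all tested genes. For Suz12 the header log2 difference was -1.003 ± 0.34 (edgeR adjusted p = 0.228).

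Genes of the 2-cell stage that Dppa2 and Dppa4 are known to activate, by way of Dux or directly, form the next list. Of 19 listed 11 were tested, 1 had an unadjusted edgeR p under 0.05 for 6% against control and 0 for 10% against control, beside 6.24% and 2.14% of all tested genes, and Duxf3 was at 0 in all 9 libraries. Their median log2 fold change was -1.23 for 6% and 1.74 for 10% against control. The summed level of the list was 298, 78.0 and 79.7 CPM in the controls, 55.9, 152 and 106 CPM with 6% ethanol, and 59.4, 64.4 and 1119 CPM with 10% ethanol. The 4 lowest values were the long-header libraries, at 55.9 to 78.0 CPM, and the short-header libraries ran from 79.7 to 1119 CPM. All 11 tested genes had a header log2 difference below 0, against 46.8% of tested genes. One of them, Usp17lc, passed the edgeR test by header form (adjusted p = 0.0425), as 0.104% of tested genes did, with 400 and 144 counts in controls 1 and 3 and 1215 in 10% library 3, and at most 4 counts in the other libraries. DESeq2 and limma voom each called 6 of the 11 by header form, beside 8.22% and 2.5% of all tested genes. The most abundant were Tdpoz1, at 62.6 ± 21.7, 52.6 ± 17.2 and 104 ± 85.9 CPM, and Zfp352, at 1.75 ± 2.61, 34.9 ± 45.1 and 67.5 ± 116 CPM (SD, n = 3). Zfp352 was at 0 in 2 of the 9 libraries, and its sire groups overlapped. Its header log2 difference was -6.15 ± 3.83 (edgeR adjusted p = 0.463). The Usp17l, Tdpoz and Zscan4 genes are families of near-identical copies, so their counts are uncertain. Library 10% 3, the highest for this list, was the library with no Utf1 count and stood at 147 CPM of Dppa2 and 227 CPM of Dppa4, neither of them the highest.

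The wider pluripotency list gives the setting for the 5 genes. Of its 19 tested genes 1 had an unadjusted edgeR p under 0.05 for 6% and 1 for 10% against control, beside 6.24% and 2.14% of all tested genes. The list's median log2 fold change was -0.14 for 6% and 0.23 for 10% against control. Fbxo15, a pluripotency-associated F-box gene, was at 1931 ± 537, 3315 ± 1204 and 2536 ± 183 CPM, and Klf5, a transcription factor of the early lineages, at 638 ± 168, 912 ± 129 and 856 ± 198 CPM (SD, n = 3). Of the trophectoderm list 11 genes were tested, with 0 under that unadjusted p for 6% and 1 for 10% against control, beside the same shares. By header form 10 of the 11 had a log2 difference above 0 for the long form (median log2 difference 1.13, against 0.10 over all tested genes), the form in which Dppa4 was lower. Of all tested genes 46.8% lay below 0 by header form. Of the 11, edgeR called 0 by header form, beside 0.104% of all tested genes. It gave 5 an unadjusted p under 0.05, where 14.8% of tested genes had one. DESeq2 called 2 and limma voom 1, beside 8.22% and 2.5% of all tested genes. Lrp2 was at 967 ± 527, 578 ± 477 and 416 ± 211 CPM and Gata3 at 214.6 ± 172, 151 ± 139 and 256 ± 140 CPM. Summed trophectoderm markers were lowest in 6% library 3, at 632 CPM, and highest in control 2, at 3165 CPM. Of the oocyte list 6 genes were tested, with 0 under it in either comparison with control, where 6.24% and 2.14% of tested genes were. Its summed level was 10.2 to 11.9 CPM in controls, 4.95 to 18.6 CPM with 6% ethanol and 10.9 to 43.8 CPM with 10% ethanol, led by Zp3 and Nlrp5. The part of these other markers in the values of the 5 genes was not tested.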

How the data were processed

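Raw counts per gene were deposited in 1 file for each of 9 libraries, made by the authors with featureCounts on GRCm39, per the submitters' processing notes, which also name DESeq2. RNA STAR is named in 4 column headers, per the file headers. The aligner of the other 5, the versions, the annotation, the strand setting and the treatment of reads with several matches are not given in the sources used here. No row was a total, 1442 rows had no symbol, and 0 columns were left unused. No coordinates are given, since the reference here, GENCODE on GRCm38, is of another build; it served for exon lengths, the Dppa5a sequences and, with RefSeq, gene order.

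From these counts edgeR 4.0.16 (R 4.3.3) kept 12488 genes by filterByExpr and scaled libraries by TMM. A quasi-likelihood model of 3 groups was fitted to all 9 libraries (common biological coefficient of variation 0.911, fold changes had a median SE of 1.02 for 6% and 1.01 for 10% against control on the log2 scale), with Benjamini-Hochberg adjustment over all tested genes and a threshold of 0.05. Header form was tested with group as a term. CPM are on TMM-scaled sizes (sums over lists on full totals), the SE is the log2 fold change over the root of its F statistic, and a 95% interval uses the moderated degrees of freedom. DESeq2 1.42.0, limma 3.58.1 (voom with quality weights), other scalings and filters, a robust fit, the header form as a covariate, fits within each form and each library left out were alternatives. The fit was tested on simulated data. The 5 genes and the 10 lists were chosen with earlier results of these data known. Beside the 5 genes, the text names each list's 2 most abundant genes where it describes them, list genes past the threshold, and the 3 genes nearest to each of the 5. Other list genes were named after their values were seen. Replicate numbers follow accession order and pair nothing.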

Additional observations from a re-analysis of the deposited data

How the results depend on the processing

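In the 4 comparisons of sire groups the number of the 5 genes called was 0 under every alternative that could be run, the 9 fits that leave out 1 library each included (0 to 0). By header form it was 0 in the reported test and 1 with DESeq2, which called Dppa4 (log2 fold change -1.79, adjusted p = 0.0219); over the other settings its log2 difference ran from -2.26 to -1.08. Over all genes DESeq2 called 31, 10, 34 and 17 genes in the 4 comparisons (6%, 10%, 10% against 6%, both) where edgeR called 0, and 1027 by header form where edgeR called 13 and limma voom 312. Fits to long-header libraries alone called 3, 9, 4 and 13 genes and fits to short-header libraries alone 48, 2, 1 and 5. The long form holds 1 control, 1 library of 6% and 2 of 10%, the short form 2, 2 and 1, and a lone library is assumed to vary like the rest. By header form the count was 85 with the looser filter, 23 with the stricter filter, 56 without a sire group term, and 0 to 30 with 1 library left out; the cause was not tested. Utf1 has no value under the stricter filter (10 CPM in at least 3 libraries), which removes it. No paired analysis was possible because the labels give the groups no shared replicate numbers. The depth of 6263465 counts in the smallest library limits Utf1 above all, where 3 counts equal 0.571 CPM.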
